A study of Xenopus laevis with 8 samples.

Results

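Genes of the Wnt pathway were followed on 8 Affymetrix arrays of *Xenopus laevis* neurulae. On 1 side of the body these had received morpholinos against H4K20 methyltransferases or a control morpholino. Members were the probe sets listed with 1 gene whose symbol, without the ending for the chromosome copy, begins with wnt (wnt8a left out), fzd, dvl, axin, ctnnb, dkk, sfrp, frzb, tcf7, lef1, gsk3, lrp5, lrp6, znrf3, rnf43, rspo, porcn or wls, or equals sp5 or apc. This rule used names and no measured value, but the members were chosen with earlier results of these data known. It found 93 probe sets of 66 genes, among 15505 probe sets of 11303 genes in the whole series. Of these genes 46 were measured well enough to be tested, among 8219 in all. The endings .L and .S mark the 2 copies that many genes have in this allotetraploid frog, and whether a probe set of one copy also binds RNA of the other was not tested.

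The arrays formed 4 groups of 2. Suv4-20h double morphants carried translation-blocking morpholinos against xSuv4-20h1 and xSuv4-20h2, while control morphants carried an unrelated standard morpholino. The 2 targeted enzymes add the second and the third methyl group to lysine 20 of histone H4. The labels give 40 ng of morpholino in neighbouring blastomeres of 1 side, while the supplementary methods describe another dose and site of injection, so the dose of these embryos is not settled. The labels give no strain. Neurulae were cut along the midline, and each array measured a pool of injected or of uninjected sides. Replicates 1 and 2 were independent experiments, and within a replicate the injected and uninjected pools of double morphants, or of control morphants, are the opposite sides of the same embryos. The knockdown acts on translation and therefore cannot be checked on RNA: kmt5b.L and kmt5b.S, which encode Suv4-20h1, lay between 7.82 and 9.30 on the log2 scale on all arrays, and kmt5c.L, which encodes Suv4-20h2, lay at 2.14 to 2.38, near the lowest value of the arrays.

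Wnt ligands are secreted proteins that carry a lipid, which the acyltransferase Porcupine (porcn) adds and which the carrier Wntless (wls) needs to bring them to the cell surface. They bind Frizzled receptors, alone or together with Lrp5 or Lrp6, and secreted antagonists of the Dickkopf and Sfrp families hold them off. In the canonical branch Dishevelled then stops a complex of Axin, Apc and Gsk3 from destroying beta-catenin (ctnnb1), which enters the nucleus and acts with Tcf and Lef factors on target genes such as axin2 and sp5. In the frog gastrula and neurula this branch favours posterior and ventral fates, neural crest and the back of the neural plate, and antagonists from the organizer keep it low in the future head. The other branch, driven by ligands such as Wnt11 and Wnt5a, steers the cell movements that lengthen the body axis.

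Values are log2 expression values made by the authors with GCRMA, which corrects background from probe sequence and puts all arrays on one scale. Array medians lay between 5.09 and 5.19, 31.7% of values lay under 2.5 near the lowest value of 2.14. With 2 arrays per group the number of arrays limits the precision, and the standard errors of single genes also depended on whether paired sides were blocked. A gene was tested when its mean reached 4 in at least 1 group, by its most variable probe set. A gene was called when its local false discovery rate (local fdr), the estimated chance that a gene with such a statistic is unchanged, was under 0.2, and Benjamini-Hochberg adjusted p-values from limma stand beside it. The local fdr threshold is looser than an adjusted p under 0.05, which no member reached in any of the 5 comparisons without a block. It was not equally strict in all comparisons. The null fitted for it had an SD of 1.72 within double morphants and 1.37 between injected sides. Within control morphants and between uninjected sides the SD was 0.865 and 0.813. A narrower null lets the same statistic be called more readily, so numbers of calls do not compare directly between comparisons. Each null was a normal curve fitted to the moderated t statistics, whose tails are heavier with so few arrays. Small local fdr values can therefore lie far below the true chance that a gene is unchanged. Counts with z values, which allow for these tails, stand in the last section.

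Markers of other tissues were not level across these arrays, and these values stand beside the results below. The summed linear level of the 3 notochord genes not.L, not.S and shh.L was 738 and 112 in injected sides of control morphants, 881 and 1218 in their uninjected sides, 1446 and 385 in injected sides of double morphants and 1215 and 1232 in their uninjected sides. For 7 genes of muscle and paraxial mesoderm the sum was 20452 and 8099 in injected sides of control morphants and 19046 and 9717 in injected sides of double morphants, against 16500 to 17876 in uninjected sides. Such a sum follows its brightest genes. Gene by gene, 5 of the 7 were higher on the injected side of double morphants (median log2 difference 0.33). In control morphants 5 of the 7 were lower there (median -0.04). The sum of 8 neural crest genes was 1423 to 2870 in injected sides of control and 1414 to 2717 in injected sides of double morphants, against 2738 to 3146 and 3396 to 4001 in uninjected sides. For 3 cement gland genes it was 1005 to 1727 in injected sides of double morphants and 3121 to 11647 elsewhere. The sum of 3 early embryo genes, mix1.L, vegt.L and vegt.S, was instead highest in injected sides of double morphants, at 2890 and 3422, against 942 to 2535 on the other arrays. For 9 epidermis genes the sum was 40283 and 33080 in injected against 64109 and 51135 in uninjected sides of double morphants, with 8 of the 9 lower on the injected side. In control morphants it was 43232 and 34429 against 56025 and 40574, with 5 of the 9 lower there and grhl1.L called higher. The 11 neural plate genes summed to 15687 and 14424 in injected against 15785 and 15978 in uninjected sides of double morphants, and to 16344 and 12429 against 16364 and 16748 in control morphants. Lower on the injected side were 8 and 9 of the 11 (medians -0.23 and -0.24), beside 47.2% and 43.1% of all genes. For 7 endoderm genes the sum was 14762 and 14702 in injected sides of double morphants and 15267 to 18095 on the other arrays. None of these marker lists held a gene near the lowest value on all arrays. In such pools fewer cells of a type and less RNA per cell cannot be told apart.

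**Figure D1:**
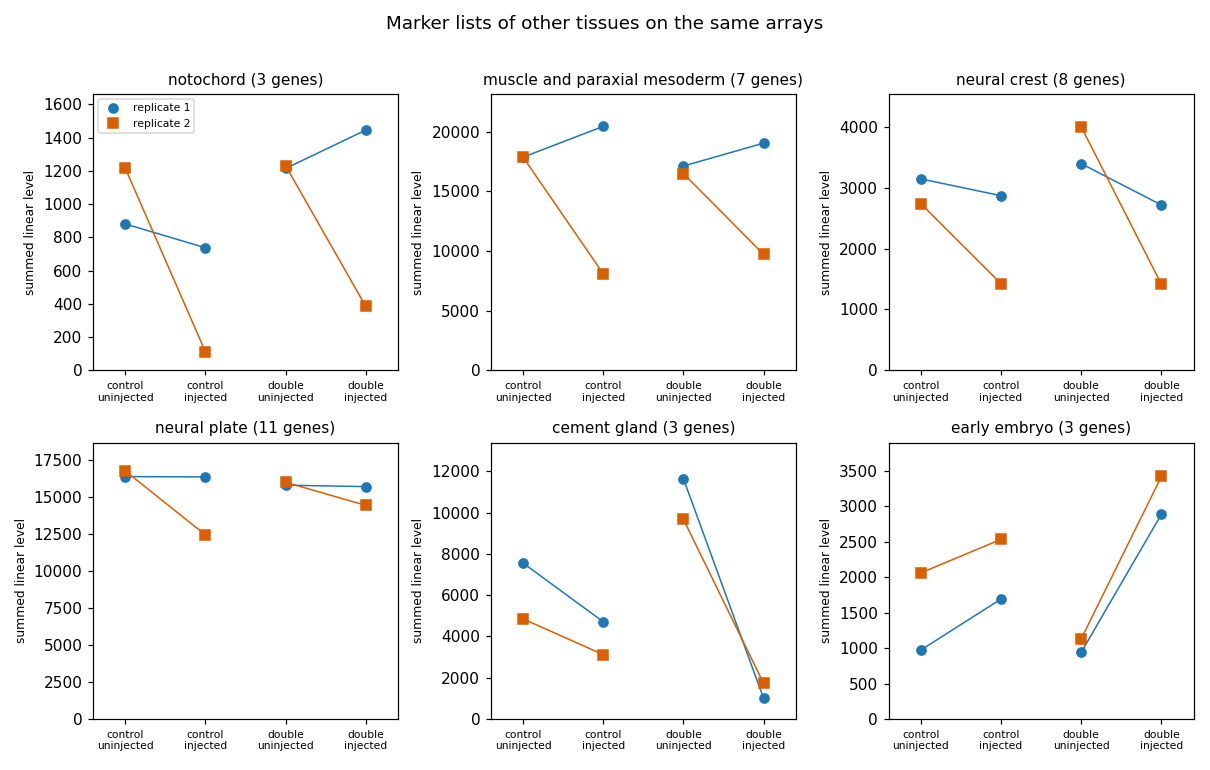
Summed linear level (y axis, starting at 0) of 6 marker lists on the 8 arrays, by group (x axis). Circles are replicate 1 and squares replicate 2, and lines join the sides of the same embryos. In replicate 2 the injected sides of both kinds of morphant held the lowest notochord (112 and 385) and muscle (8099 and 9717) sums.

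Of the 66 genes 20 were not tested, and 12 of them lay under 2.5 on all arrays at every probe set. These 12 were the scaffold genes axin1.L and axin1.S, the ligand genes wnt2b-b, wnt2b.L, wnt6.S and wnt7b.L, the receptor genes fzd1.L, fzd8.L and lrp6.L, and the antagonist genes dkk2.L, frzb and sfrp5.L. Such a value does not show that the RNA was missing. Among the probe sets of the 20 genes, 9 gave exactly the same value on all 8 arrays. The other 8 genes, dvl1.L, gsk3b.L, wnt1.L, fzd5.S, dkk3.S, sfrp5.S, sp5.S and tcf7l2.L, had group means of at most 3.94. By role 12 of 16 genes of cytoplasmic transduction, 8 of 13 ligand genes, 9 of 13 receptor genes, 7 of 12 inhibitor genes, all 3 genes of ligand secretion, both genes of receptor turnover and R-spondins, and 5 of 7 genes of transcription factors and target were tested. Of the 46 tested, 44 had a mean of at least 4 in all groups. The gene sfrpx.S passed only through the injected sides (means 4.26 in control and 4.39 in double morphants). The gene wnt5a-a passed only through injected sides of control morphants (4.34). The filter thus favoured the direction of their differences from the other groups, and the member counts below hold both genes.

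The first question was which Wnt genes differed between the injected and the uninjected side of double morphants. Only fzd10.L was called, which is 1 member higher (2.17% of 46) and 0 lower, against 0.633% of all genes higher and 0.998% lower. Before adjustment, limma gave p under 0.05 for 5 members that were higher and 3 that were lower, together 17.4% of the members, against 21.2% of all genes. The median log2 difference of the members was 0.10, against 0.035 over all genes, and 21 members were higher and 12 lower in both experiments, out of 46, against 43.0% and 37.4% of all genes. Blocking on the paired sides, no member was called by local fdr. By adjusted p under 0.05 with that block, a rule added after the data were seen, 6 members were higher (fzd10.L, fzd10.S, fzd7.L, gsk3a.L, porcn.L and sp5.L) and 3 lower (fzd3.L, sfrp2.S and wnt3a.S). Together these are 19.6% of the members, against 28.0% of all genes called in that fit, so the share lies below the background.

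The same comparison in control morphants shows what followed injection of an unrelated morpholino. Here 4 members were higher (axin2.L, dvl3.L, fzd10.L and sp5.L) and 3 lower (fzd8.S, dkk1.S and frzb2.L). These are 8.70% and 6.52% of the members, against 0.900% of all genes higher and 3.11% lower. Their adjusted p-values from limma lay between 0.740 and 0.968, and the lowest over all genes was 0.405. Before adjustment, 5 higher and 3 lower members had p under 0.05, which is 17.4% of the members against 5.13% of all genes. Blocking on the paired sides, sp5.L alone was still called, and no gene of the array reached an adjusted p under 0.05. Without injected replicate 2, the array with the lowest notochord and muscle sums, 3 members were called, of which only frzb2.L was among the 7. Leaving out injected replicate 1 gave 3 (2 of the 7), uninjected replicate 1 gave 2 (both of the 7) and uninjected replicate 2 gave 0.

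Testing whether the effect of injection differed between the kinds of morphant (double minus control), limma called no member in either direction, and none had an unadjusted p under 0.05, against 6.50% of all genes. Over all genes 1.20% were called higher and 1.97% lower. Effects of injection in both kinds of morphant stand side by side in the plot of injected minus uninjected sides. Differences between the effects ranged from -1.03 for sfrp2.S (standard error 0.70) to 1.03 for fzd4.S (standard error 0.74). The median standard error of the members was 0.39 for this difference, against 0.28 for a single effect.

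**Figure D2:**
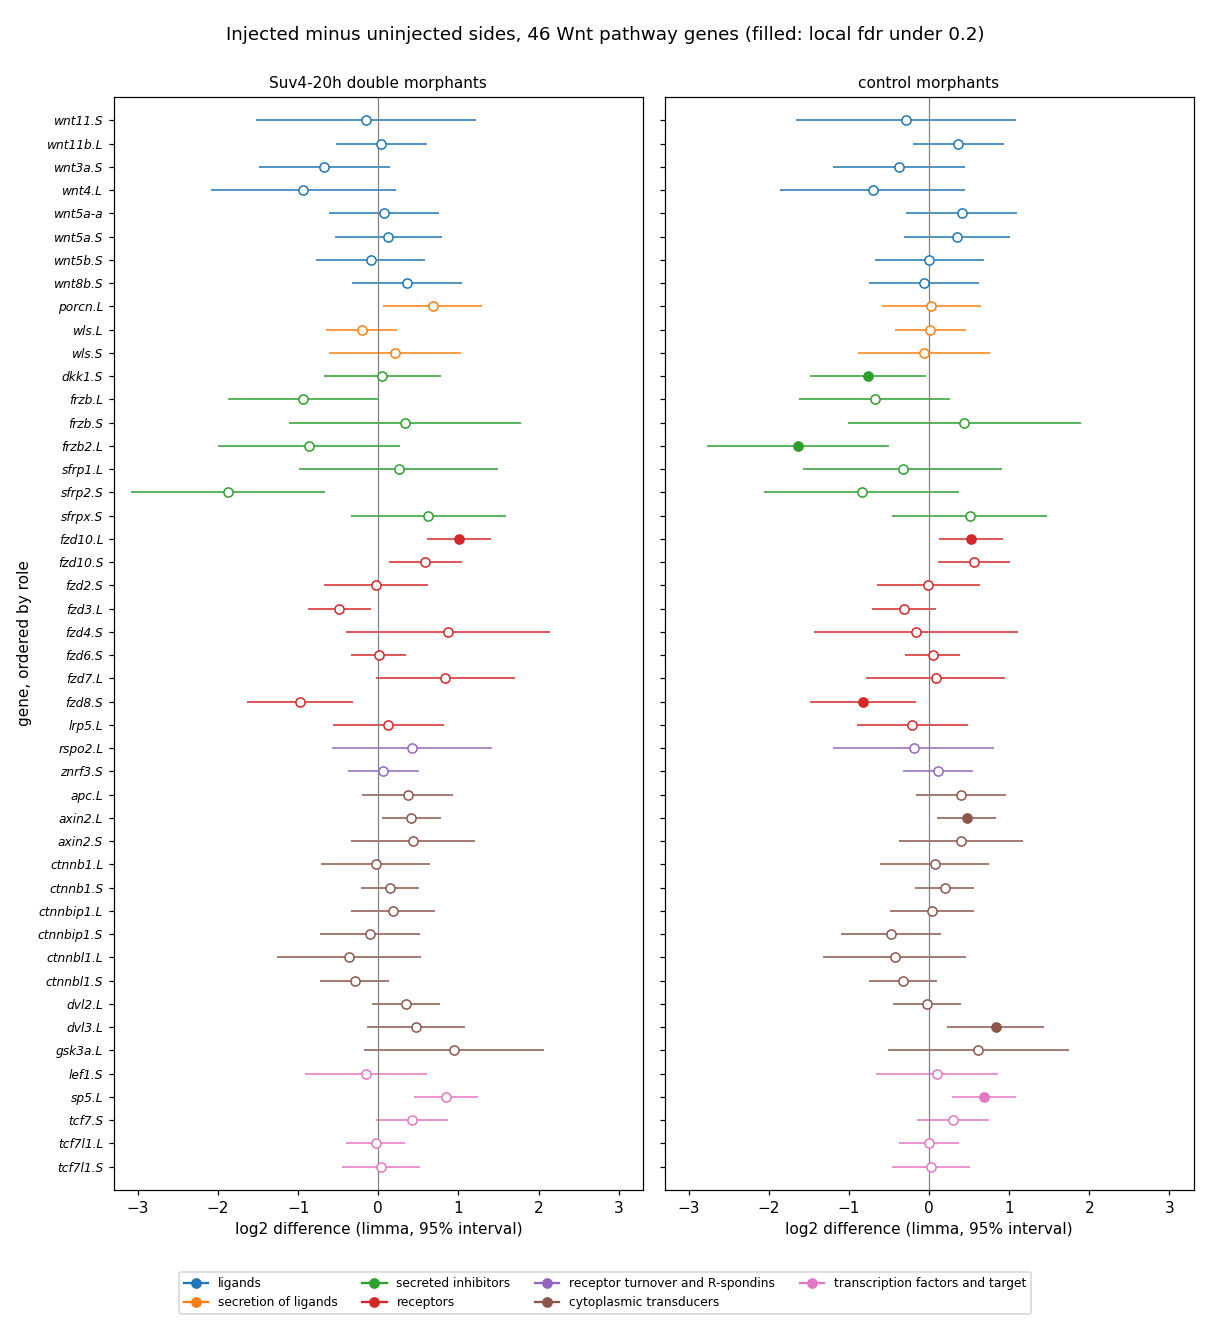
Log2 difference between injected and uninjected sides (x axis, limma estimate with 95% interval) of the 46 tested genes (y axis), in double morphants (left) and control morphants (right), coloured by role. Filled points have a local fdr under 0.2: fzd10.L on the left, and axin2.L, dvl3.L, fzd10.L, sp5.L, fzd8.S, dkk1.S and frzb2.L on the right.

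Comparing the same side between the kinds of morphant, 0 members were called between injected sides by local fdr at the tested probe sets. Over all genes 2.40% were called higher and 3.19% lower in double morphants. Before adjustment, limma gave p under 0.05 for 3 members that were higher and 4 that were lower (15.2%, against 17.5% of all genes). With the experiment as a block and an adjusted p under 0.05, also added after the data were seen, fzd3.L and fzd7.L were higher and fzd10.S, lef1.S and wnt11b.L lower, which are 4.35% and 6.52% of the members, against 7.18% and 8.19% of all genes. The direction of fzd7.L there rests on the probe set, with 0.59 at the tested one and -0.0047 at its brightest one. Between uninjected sides fzd3.L was called higher and fzd10.L, fzd10.S, sp5.L and tcf7.S lower in double morphants, 2.17% and 8.70% of the members against 1.42% and 1.05% of all genes. Every adjusted p of this comparison was 1.00 for these 5 genes, and with the experiment as a block only fzd3.L and sp5.L were still called. Without uninjected replicate 1 of control morphants no member was called, without replicate 1 of double morphants 9 were, and without replicate 2 of double morphants only fzd3.L was. The median difference of the members was -0.16 between uninjected and -0.11 between injected sides, against -0.03 and -0.01 over all genes. The comparisons share arrays: the uninjected sides of double morphants enter both this comparison and the one within double morphants.

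**Figure D3:**
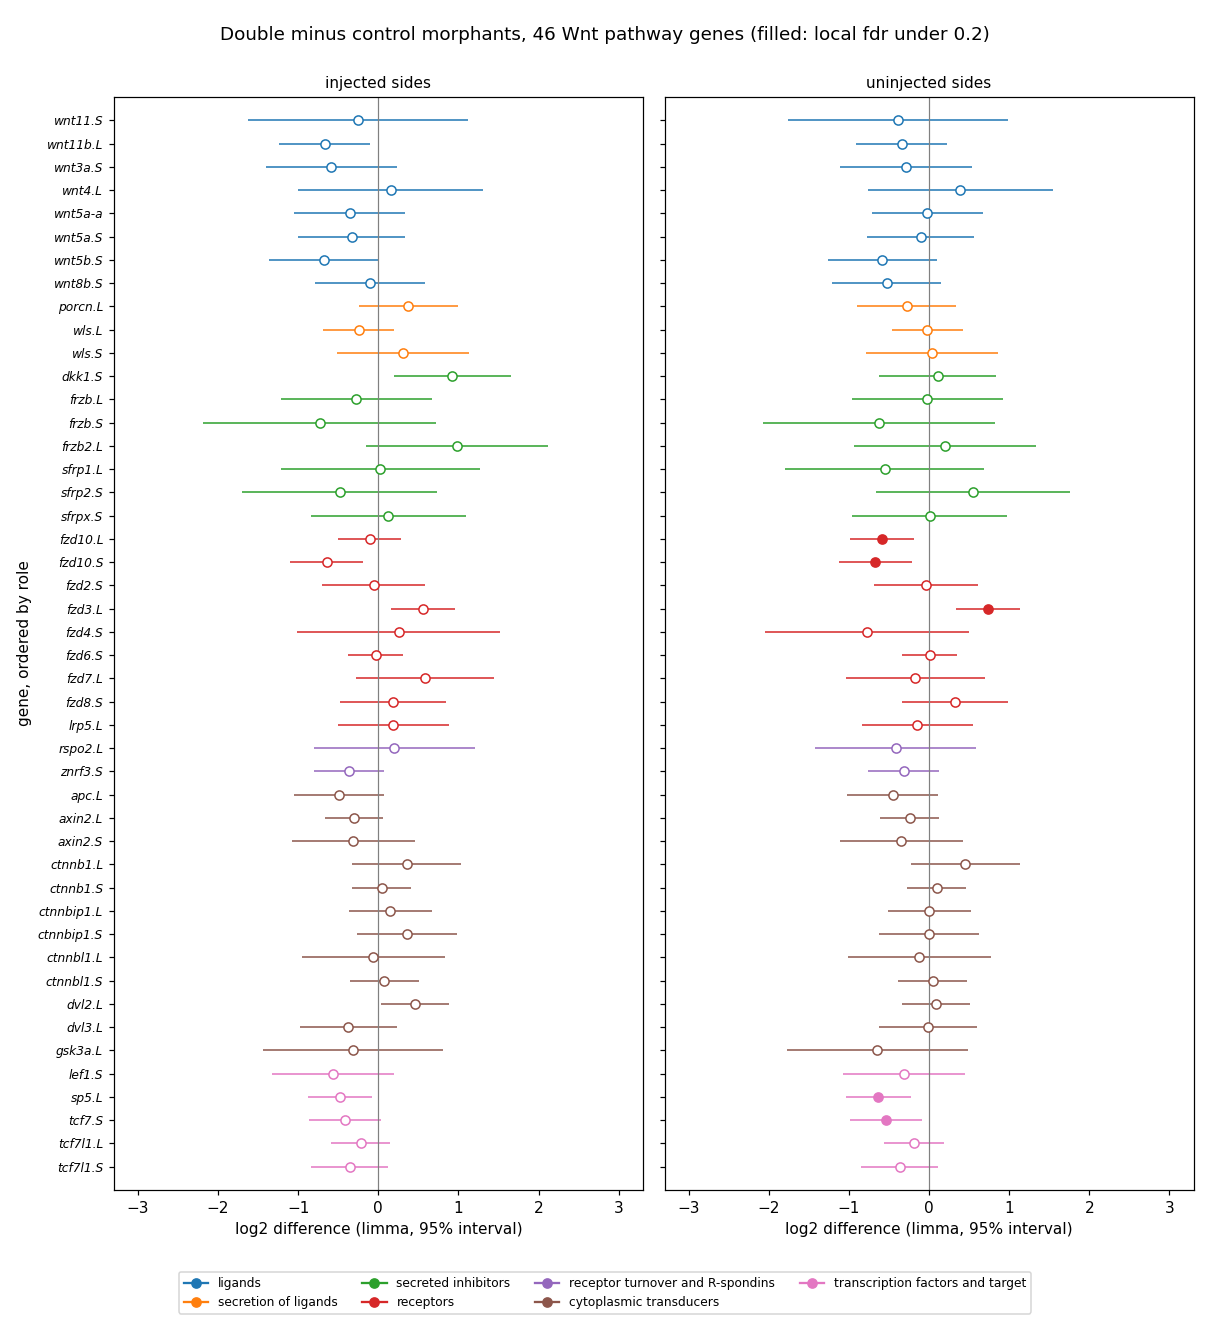
Log2 difference between double and control morphants (x axis, limma estimate with 95% interval) of the 46 tested genes (y axis), for injected sides (left) and uninjected sides (right), coloured by role. Filled points have a local fdr under 0.2: none on the left, and fzd3.L (0.73), fzd10.L (-0.59), fzd10.S (-0.67), sp5.L (-0.63) and tcf7.S (-0.54) on the right.

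None of the 8 tested ligand genes was called in any comparison. The ligand gene wnt8a.L, which the rule left out, was called within both kinds of morphant and between uninjected sides. Its values stand with the outside genes below. The ligand gene wnt11b.L, whose maternal and organizer RNA is known for axis formation and convergent extension, had 10.43 and 10.82 in injected and 10.45 and 10.72 in uninjected sides of double morphants, and 11.20 and 11.39 in injected and 10.73 and 11.12 in uninjected sides of control morphants. Injected sides of double morphants thus lay below those of control morphants in both experiments, with a log2 difference of -0.67 (standard error 0.23, adjusted p = 0.216 by limma, or 0.0257 with the experiment as a block). The gene wnt5b.S, a ligand of the movement branch, had 8.32 and 7.95 in injected and 8.08 and 8.39 in uninjected sides of double morphants, against 9.11 and 8.53 and 8.63 and 9.00 in control morphants. Its groups did not overlap on either side, which also held for 43.6% of all genes between injected and 27.1% between uninjected sides. Among the 46 members 21 and 18 did not overlap. The log2 differences of wnt5b.S were -0.68 and -0.58 (standard error 0.28, adjusted p = 0.283 and 1.00 by limma). The canonical ligand gene wnt3a.S, a signal of the tailbud and the posterior neural plate, had 5.11 and 5.35 in injected and 5.87 and 5.93 in uninjected sides of double morphants. That is a difference of -0.67 (standard error 0.34, adjusted p = 0.320, or 0.0333 with the pairs as a block), and in control morphants, at 6.26 and 5.37 injected and 6.45 and 5.92 uninjected, the injected side was also the lower one of both pairs (-0.37, standard error 0.34). The difference between these effects was -0.30 (standard error 0.48) and was not called. Over the ligands 7 of 8 differences between double and control morphants were negative on injected sides and 7 of 8 on uninjected sides, with medians of -0.34 and -0.31. Over all genes 50.8% and 54.3% of these differences were negative, and over all members 27 and 32 of 46. The ligand gene wnt5a-a, counted among the negative ones, passed the filter only through injected sides of control morphants. Its negative difference on injected sides (-0.36) was thereby favoured by the filter and adds no support to the count. The gene wnt4.L, whose product acts in kidney and nervous system, had the most negative difference between the sides of double morphants among ligands, -0.94 (standard error 0.47), and -0.70 in control morphants.

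Of the 3 genes of ligand secretion none was called. The acyltransferase gene porcn.L had 6.69 and 6.19 in injected sides of double morphants, and 6.03 and 5.49 in their uninjected sides. In control morphants it stayed between 6.02 and 6.07 on all 4 arrays. Its difference between the sides was 0.68 in double morphants (standard error 0.25, adjusted p = 0.205 by limma, or 0.0203 with the pairs as a block) and 0.03 in control morphants, and the difference between these effects was 0.65 (standard error 0.36, adjusted p = 0.811). The carrier genes wls.L and wls.S lay between 8.85 and 9.73 on all arrays, with differences between the sides from -0.21 to 0.21.

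Secreted inhibitors held 2 of the 3 called decreases of control morphants. The gene frzb2.L, of the secreted Frizzled-related family whose products bind Wnt proteins, had 5.47 and 4.298 in injected and 6.52 and 6.53 in uninjected sides of control morphants. Injected sides thus lay below uninjected sides in both experiments, although the replicates differed by more than 1 unit, and frzb2.L fell 3.11-fold (log2 difference -1.64, standard error 0.47, local fdr 0.00650, adjusted p = 0.872). This call was lost without uninjected replicate 2 (-1.63) and with the pairs as a block. In double morphants it had 5.39 and 6.33 in injected and 6.91 and 6.54 in uninjected sides, a difference of -0.86 (standard error 0.47) that did not pass the test. The other probe set of frzb2.L went the same way, by -1.22 in control and -0.91 in double morphants.

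The Dickkopf gene dkk1.S encodes the antagonist of Lrp5 and Lrp6 that the head organizer and the prechordal plate release. In control morphants it had 6.66 and 6.45 in injected and 7.55 and 7.09 in uninjected sides, and it fell 1.70-fold (log2 difference -0.76, standard error 0.30, local fdr 0.113, adjusted p = 0.968). The call was lost without any single control array (-0.99 to -0.53). The other probe set of dkk1.S had -0.48 in control morphants and was not called (local fdr 0.709 in the fit over all annotated probe sets). In double morphants the experiments went opposite ways, with 7.12 and 7.83 in injected and 7.57 and 7.28 in uninjected sides at the tested probe set. At this probe set the injected sides of double morphants therefore lay above those of control morphants (log2 difference 0.92, standard error 0.30, adjusted p = 0.191 by limma). This was not called, and without injected replicate 1 of double morphants the difference was 1.28. At the other probe set it was 0.54, with opposite signs in the experiments (-0.12 in replicate 1 and 1.20 in replicate 2). Beside these decreases of frzb2.L and dkk1.S, the notochord genes not.L, not.S and shh.L had differences of -1.16, -1.67 and -3.47 in control morphants, of which that of not.L was called. In double morphants they had -0.12, -0.50 and -1.17, and their part in the inhibitors' differences was not tested.

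The antagonist gene sfrp2.S had the largest difference of any tested member between the sides of double morphants. It had 8.35 and 7.48 in injected and 9.84 and 9.73 in uninjected sides of double morphants, and 8.98 and 7.81 in injected and 9.63 and 8.85 in uninjected sides of control morphants. Injected sides were the lower ones in all 4 pairs. The share of all genes with 1 direction in all 4 pairs was not computed, here or for the genes below. The log2 difference of sfrp2.S was -1.88 in double morphants (standard error 0.50, a 3.67-fold lower level, local fdr 0.661, adjusted p = 0.127 by limma), which did not pass the test without a block. With the pairs as a block the standard error was 0.23 and the adjusted p = 0.0181. In control morphants the difference was -0.84 (standard error 0.50), and replicate 2 minus replicate 1 was -0.87 in injected sides of double morphants and -1.17 in those of control morphants. The neural crest and muscle sums listed above were lower in these same injected arrays of replicate 2, and their part was not tested. The gene sfrp1.L, of the same family, had 9.61 and 9.71 in the injected sides of replicate 2 and 9.86 to 10.87 on the other 6 arrays. The copies of frzb, an antagonist of the organizer, had differences of opposite sign: frzb.L had values of -0.94 and -0.68 in double and control morphants (standard error 0.39), and frzb.S of 0.33 and 0.44 (standard error 0.60).

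Among receptors the fzd10 genes stood out. Frizzled-10 is a receptor of canonical Wnt signals with known RNA in the dorsal neural tube and neural crest region. On the arrays fzd10.L had 8.38 and 8.32 in injected and 7.38 and 7.30 in uninjected sides of double morphants, and 8.42 and 8.49 in injected and 7.80 and 8.06 in uninjected sides of control morphants. Injected sides lay above uninjected sides in all 4 pairs, and the 4 injected arrays lay between 8.32 and 8.49, while the uninjected sides of double morphants lay below those of control morphants. It rose 2.01-fold in double morphants (log2 difference 1.01, standard error 0.16, local fdr 0.115, adjusted p = 0.0846, or 0.0180 with the pairs as a block) and 1.44-fold in control morphants (0.53, standard error 0.16, local fdr 0.129, adjusted p = 0.959). The difference between these effects was 0.48 (standard error 0.23, adjusted p = 0.789) and was not called. Between uninjected sides fzd10.L was lower in double morphants (log2 difference -0.59, standard error 0.16, local fdr 0.00979, adjusted p = 1.00), and between injected sides the log2 difference was -0.11. The call between uninjected sides was lost without either control array or without replicate 2 of double morphants (-0.72 to -0.46). In double morphants the call was lost without either injected replicate and without uninjected replicate 2 (log2 differences from 0.97 to 1.03). The control call was lost without any single control array (0.40 to 0.65).

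The copy fzd10.S had 10.10 and 10.30 in injected and 9.68 and 9.55 in uninjected sides of double morphants, and 10.72 and 10.97 in injected and 10.16 and 10.41 in uninjected sides of control morphants. Like its copy it was higher on the injected side of every pair, by 0.59 in double and 0.56 in control morphants (standard error 0.19), neither of which was called. It lay lower in double than in control morphants on both sides, between uninjected sides (log2 difference -0.67, local fdr 0.0108, adjusted p = 1.00, called) and between injected sides (log2 difference -0.64, adjusted p = 0.155, not called). The first of these calls was lost when the same arrays as for fzd10.L were left out (-0.80 to -0.55). The other probe set of fzd10.S had differences of 0.59, 0.54, -0.64 and -0.59 in the same 4 comparisons. The 8 neural crest genes, whose median difference between the sides was -1.16 in double and -0.64 in control morphants, had negative differences in 8 of 8 and 7 of 8 cases, opposite in sign to the fzd10 genes, and their part in these results was not tested.

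The receptor gene fzd3.L, known for neural crest induction in the frog and axon growth in the mouse, had differences of the opposite sign. It had 8.11 and 7.98 in injected and 8.56 and 8.50 in uninjected sides of double morphants, and 7.40 and 7.57 in injected and 7.70 and 7.89 in uninjected sides of control morphants. Every array of double morphants lay above every array of control morphants. The share of all genes with such a separation over both sides was not computed. On single sides the 2 groups did not overlap for 43.6% (injected) and 27.1% (uninjected) of all genes. The values of fzd3.L compared as follows. It was 1.66-fold higher in uninjected sides of double than of control morphants (log2 difference 0.73, standard error 0.16, local fdr 2.91e-05, adjusted p = 1.00), a call that was lost without uninjected replicate 1 of control morphants (0.64). Injected sides differed by 0.56 (standard error 0.16, adjusted p = 0.157, or 0.0489 with the experiment as a block). Within embryos the injected side was lower in all 4 pairs, with log2 differences of -0.49 in double and -0.31 in control morphants, which were not called.

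For fzd8.S, a receptor of the anterior neural plate, the probe sets disagreed. At the tested one it had 8.87 and 8.71 in injected and 9.61 and 9.62 in uninjected sides of control morphants, and 8.58 and 9.36 in injected and 10.02 and 9.86 in uninjected sides of double morphants. It fell 1.77-fold in control morphants (log2 difference -0.83, standard error 0.27, local fdr 0.0323, adjusted p = 0.959) and had a difference of -0.97 in double morphants (standard error 0.27, adjusted p = 0.136) that was not called, and that was called without injected replicate 2 of double morphants (-1.36). The other probe sets that passed the filter had differences of 0.18 and 0.14 in control and -0.40 and -0.12 in double morphants, so the direction in control morphants rests on the choice of probe set. Between injected sides of double and control morphants the tested one had 0.18, and the others -1.08 and -0.04. That of -1.08 was called in the fit over all annotated probe sets (local fdr 0.146). Between uninjected sides the tested one had 0.33, and the others -0.49 and 0.22. The decrease was also not called without any single control array.

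The remaining receptor genes were not called. The gastrulation receptor gene fzd7.L had 7.28 and 6.76 in injected and 6.42 and 5.95 in uninjected sides of double morphants. This is a difference of 0.84 (standard error 0.35, adjusted p = 0.248, or 0.0243 with the pairs as a block), against 0.08 in control morphants, and the difference between these effects was 0.76 (standard error 0.50, adjusted p = 0.861). Its other 4 probe sets that passed the filter had differences between 0.05 and 0.70 in double morphants, and between -0.0047 and 0.52 between injected sides. For fzd4.S, which in mammals is a receptor of Norrin as well as of Wnt proteins, the uninjected sides of double morphants held 5.95 and 4.49, and the other 6 arrays 5.52 to 6.46. Its difference of 0.87 in double morphants (standard error 0.52) thus rested largely on replicate 2 (1.51, against 0.22 in replicate 1). The genes fzd2.S and fzd6.S and the co-receptor gene lrp5.L had differences between -0.21 and 0.12 within either kind of morphant. The 2 genes of receptor turnover, znrf3.S, a ubiquitin ligase that removes Frizzled, and rspo2.L, an R-spondin that blocks such ligases, were not called in any comparison.

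**Figure D4:**
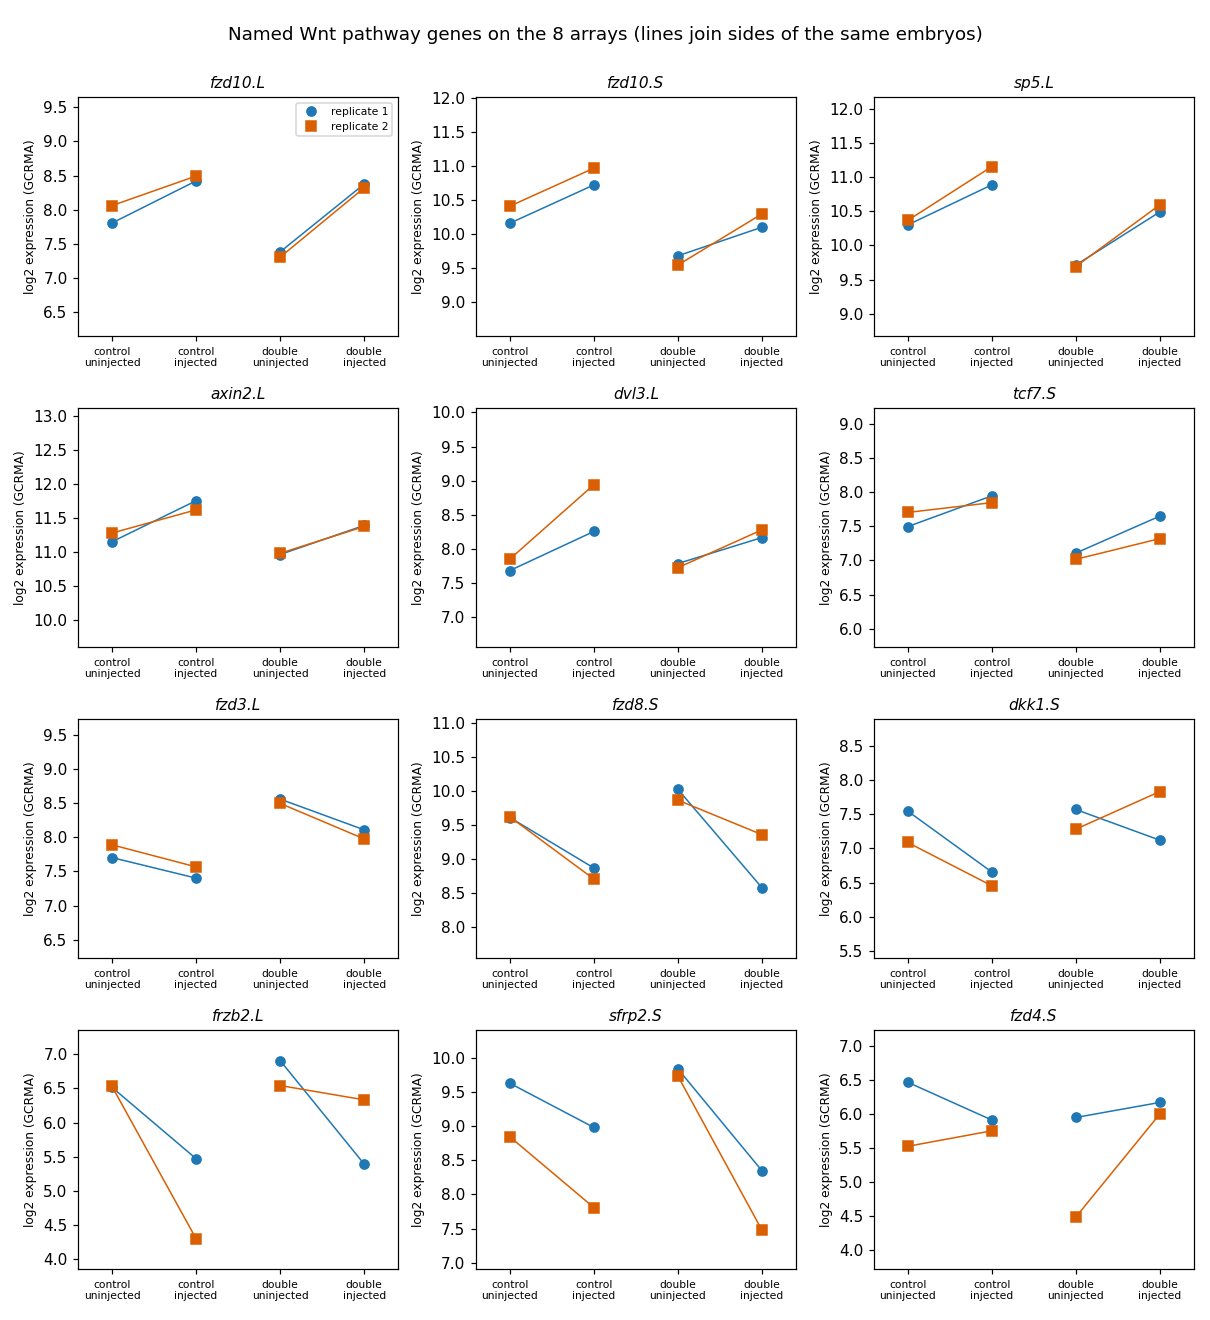
Log2 expression (y axis, GCRMA values, 3.5 units high in every panel) of 12 Wnt pathway genes on the 8 arrays by group (x axis), each at its tested probe set. Circles are replicate 1, squares are replicate 2 and lines join the sides of the same embryos. From the uninjected to the injected side, fzd10.L, fzd10.S, sp5.L, axin2.L, dvl3.L and tcf7.S rise in all 4 pairs, whether or not called. The genes fzd3.L, fzd8.S, frzb2.L and sfrp2.S fall in all 4. All 12 genes were chosen by calls or large differences on these same arrays. The share of all genes with 1 direction in all 4 pairs was not computed. In both experiments 43.0% of all genes were higher and 37.4% lower on the injected side of double morphants. In control morphants these shares were 41.1% and 29.6%.

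Among cytoplasmic transducers 2 genes were called higher in control morphants at their tested probe sets, and none was called elsewhere. The scaffold gene axin2.L, itself a target of beta-catenin that feeds back on the pathway, had 11.75 and 11.62 in injected and 11.15 and 11.28 in uninjected sides of control morphants, and 11.39 and 11.38 in injected and 10.97 and 10.98 in uninjected sides of double morphants. It rose 1.39-fold in control morphants (log2 difference 0.47, standard error 0.15, local fdr 0.170, adjusted p = 0.959), and this call was lost when any 1 of the 8 arrays was left out (0.40 to 0.54). In double morphants the difference was 0.41 (standard error 0.15, adjusted p = 0.201), so that the effects differed by only -0.06 (standard error 0.21). The copy axin2.S had differences of 0.43 in double and 0.40 in control morphants (standard error 0.32), positive in all 4 pairs. Its other probe set had 0.62 in control morphants (standard error 0.15) and was called in the fit over all annotated probe sets (local fdr 0.00713). In double morphants that probe set had 0.34 (standard error 0.15) and was not called. The Dishevelled gene dvl3.L had 8.26 and 8.94 in injected and 7.68 and 7.85 in uninjected sides of control morphants, and 8.17 and 8.28 in injected and 7.79 and 7.73 in uninjected sides of double morphants. It rose 1.78-fold in control morphants (log2 difference 0.83, standard error 0.25, local fdr 0.100, adjusted p = 0.946). Without injected replicate 2, the highest of its 8 values, the difference was 0.49 and not called, and it was also lost without either uninjected control array. The other probe set of dvl3.L had 0.71 in control morphants and was not called (local fdr 0.495 in the fit over all annotated probe sets). In double morphants the difference at the tested probe set was 0.47 (standard error 0.25), and dvl2.L, the other Dishevelled gene tested, had 0.35 in double and -0.02 in control morphants.

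The genes of beta-catenin itself were not called. The copy ctnnb1.S lay between 12.85 and 13.17 on all arrays, with differences of 0.14 in double and 0.20 in control morphants (standard error 0.15). At the tested probe set ctnnb1.L had -0.03 and 0.07 (standard error 0.28), and at its other probe sets that passed between 0.07 and 0.12. The tested probe set was its dimmest (mean 9.54, against 12.59 and 13.32). Between double and control morphants the tested one had 0.35 on injected and 0.45 on uninjected sides. The brighter ones had negative differences there, from -0.12 to -0.08. The kinase gene gsk3a.L, whose product marks beta-catenin for destruction, had 5.30 and 4.80 in injected and 4.62 and 3.59 in uninjected sides of double morphants, a difference of 0.94 (standard error 0.46, adjusted p = 0.311, or 0.0330 with the pairs as a block), and 0.62 in control morphants. The tumour suppressor gene apc.L had 0.37 and 0.40. The genes ctnnbip1.L and ctnnbip1.S encode an inhibitor of the pairing of beta-catenin with Tcf. The product of ctnnbl1.L and ctnnbl1.S is a protein other than beta-catenin that belongs to the splicing machinery, and these copies are counted in this role by name only. All of these genes had differences between the sides from -0.47 to 0.18 and were not called.

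Of the transcription factors and the target, sp5.L was called in the same comparisons as fzd10.L, except between the sides of double morphants. It encodes a zinc finger factor that Wnt signals induce in posterior tissue. It had 10.49 and 10.60 in injected and 9.71 and 9.69 in uninjected sides of double morphants, and 10.89 and 11.16 in injected and 10.30 and 10.37 in uninjected sides of control morphants. Injected sides lay above uninjected ones in all 4 pairs, and double morphants below control morphants on both sides. It rose 1.61-fold in control morphants (log2 difference 0.69, standard error 0.16, local fdr 0.00378, adjusted p = 0.740). In double morphants its difference was larger, 0.84 (standard error 0.16, adjusted p = 0.0975, or 0.0190 with the pairs as a block), but not called by local fdr (0.327), since the null fitted to the statistics was wider there, with an SD of 1.72 against 0.865 in control morphants. The effects differed by 0.15 (standard error 0.23). Between uninjected sides sp5.L was 1.55-fold lower in double morphants (log2 difference -0.63, local fdr 0.00368, adjusted p = 1.00), and between injected sides the difference was -0.48 (adjusted p = 0.211, not called). The control call was lost without either injected control array or uninjected replicate 2 (0.55 to 0.82), and that between uninjected sides without control replicate 1 or double replicate 2 (-0.66 and -0.62).

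The HMG box gene tcf7.S, which encodes a DNA-binding partner of beta-catenin, had 7.65 and 7.32 in injected and 7.11 and 7.02 in uninjected sides of double morphants, and 7.95 and 7.85 in injected and 7.50 and 7.70 in uninjected sides of control morphants. Uninjected sides of double morphants were lower than those of control morphants 1.45-fold (log2 difference -0.54, standard error 0.18, local fdr 0.113, adjusted p = 1.00). This call was lost without any 1 of the control arrays or without uninjected replicate 2 of double morphants (-0.64 to -0.43). The other probe set of tcf7.S had -0.41 between uninjected sides and was not called (local fdr 0.532 in the fit over all annotated probe sets). At the tested probe set the injected side was the higher one in all 4 pairs, by 0.42 in double and 0.30 in control morphants, neither of which was called. All 5 tested genes of this role had lower means in double than in control morphants on both sides, with medians of -0.41 on injected and -0.37 on uninjected sides, beside the 50.8% and 54.3% of all genes that were lower. The gene lef1.S, which encodes another partner of beta-catenin, had 7.70 and 7.21 against 8.35 and 7.70 between injected sides (log2 difference -0.57, standard error 0.31, adjusted p = 0.420, or 0.0429 with the experiment as a block). The repressor genes tcf7l1.L and tcf7l1.S had differences between -0.03 and 0.04 between the sides.

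Both copies of 8 genes were tested. Their differences had the same sign for 3 of the 8 pairs of copies in double morphants (axin2, ctnnbl1 and fzd10) and for 4 in control morphants, where ctnnb1 joined them. Between double and control morphants the sign was the same for 6 of the 8 on injected and 5 on uninjected sides. Some opposite signs rest on differences near 0, such as -0.03 and 0.04 for tcf7l1.L and tcf7l1.S in double morphants. Replicates also differed in common directions: 6 of 46 were higher and 16 lower in replicate 2 than in replicate 1 in all 4 groups, against 27.9% and 26.3% of all genes, and sfrp1.L, sfrp2.S, fzd7.L and porcn.L were among the 16.

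Other genes of the pathway were taken from lists that left out the members. Of 17 genes of the membrane and the extracellular space, vangl1.L, a gene of planar cell polarity, fell in control morphants (log2 difference -0.55, standard error 0.19, local fdr 0.0516, adjusted p = 0.959 by limma), and vangl2.L was lower in uninjected sides of double than of control morphants (-0.58, standard error 0.16, local fdr 0.0126, adjusted p = 1.00). Each is 5.88% of the 17, beside the 3.11% and 1.05% of all genes called lower in these comparisons. In double morphants none of the 17 was called. Of 25 genes of cytoplasm and nucleus none was called within either kind of morphant, and the posterior homeobox gene cdx1.S was lower in uninjected sides of double than of control morphants (log2 difference -0.995, standard error 0.25, local fdr 0.00254, adjusted p = 1.00 by limma), 1 of the 25 genes against 1.05% of all genes. Its injected sides lay higher than its uninjected ones, by 0.95 in double and 0.55 in control morphants, neither of which was called. Of 22 Wnt target genes outside the members, wnt8a.L, the ligand gene of the ventral and posterior mesoderm, rose in both kinds of morphant (1.17 and 0.65, standard error 0.16, local fdr 0.0215 and 0.00566, adjusted p = 0.0765 and 0.740 by limma). It was lower in uninjected sides of double than of control morphants (-0.50, local fdr 0.0599, adjusted p = 1.00), and its injected sides differed by 0.03. The midbrain gene en2.L fell in double morphants (log2 difference -2.45, standard error 0.43, local fdr 0.121, adjusted p = 0.0887 by limma), to injected values of 2.35 and 2.33 near the lowest value, where a further fall cannot be measured. It was higher in uninjected sides of double than of control morphants (1.61, local fdr 0.00186, adjusted p = 1.00). The gene en2.L passed the filter only through uninjected sides of double morphants. The filter thus favoured both of these differences, and the counts below hold this gene. One gene is 4.55% of the 22 targets, beside 0.633% of all genes called higher and 0.998% lower in double, and 0.900% higher in control morphants. Between uninjected sides 1 of the 22 was called higher and 2 lower (cdx1.S, which both lists hold, and wnt8a.L), against 1.42% and 1.05% of all genes. With the paired sides or, between morphants, the experiment as a block, only the call of en2.L between uninjected sides was kept among these calls of outside genes, while by adjusted p the side differences of wnt8a.L and en2.L in double morphants had 0.0180 and 0.0183. Median differences of the 22 targets between double and control morphants were -0.26 on uninjected and -0.21 on injected sides, with 18 and 17 of the 22 negative, beside 54.3% and 50.8% of all genes.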

How the data were processed

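RNA of 8 samples was hybridised to 8 Affymetrix arrays. The authors computed the deposited log2 values of 32635 probe sets with GCRMA (version not given in the sources used here). Probe-level data were not used here. Probe sets were named from the platform annotation, and 88 of 93 member probe sets matched a current RefSeq symbol. The authors' filter on present calls was replaced by a mean of at least 4 in at least 1 group, with probe sets of variance 0 left out. One limma model with the 4 group means (R 4.3.3, limma 3.58.1, 4 residual and 2.08 prior degrees of freedom) gave 5 comparisons over 8219 genes. Local fdr was computed by a new implementation of the method the study names (120 bins, a spline with 7 degrees of freedom, an empirical null), tested on simulated data. Arrays were grouped by morpholino and side as labelled. Sides of the same embryos are pairs by design: deviations from group means correlated by 0.77 between paired sides of control and by 0.65 of double morphants, and by 0.80 between injected sides of different embryos. Genes called in any comparison, or differing by at least 1 in double morphants or between the effects, were described on every array. The members and lists were chosen with earlier results of these data known. Alternatives were another null, z values, adjusted p-values, other filters and probe sets, blocks, renewed quantile normalization and leaving out each array.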

Additional observations from a re-analysis of the deposited data

How the results depend on the processing

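With 2 arrays per group and a loose threshold, the counts of called members depended on the rule. Another null, z values, adjusted p-values and blocks leave the log2 differences as they are. No direction could turn under these settings. Blocking on the paired sides, 1 member was called in control morphants (7 without it) and 0 in double morphants (1 without it). With the experiment as a block these counts were 0 and 0, and 2 between uninjected sides (5 without it). With the block and adjusted p under 0.05, a rule chosen after seeing the data, they were 0 in control and 9 in double morphants with pairs, and 0 and 8 with the experiment, together with 5 between injected and 0 between uninjected sides. No other count of members moved by over 1.5 times with a block. A theoretical null gave 2 members in control morphants, 11 in double morphants and 7 between injected sides (0 with the fitted null). With z values 1, 0 and 1 were called in control morphants, in double morphants and between uninjected sides. Adjusted p under 0.05 gave 0, 0 and 0 there, and adjusted p under 0.2 gave 0 in control and 6 in double morphants, 3 between injected and 0 between uninjected sides. Without the filter on low values the counts were 11 in control and 5 in double morphants, 1 for the difference between the effects, 9 between injected and 9 between uninjected sides. The brightest probe set of each gene gave 4 in control morphants. All annotated probe sets gave 2 in double morphants (fzd10.L and sp5.L) and 1 between injected sides. The latter was fzd8.S, lower in double morphants (-1.08) at a probe set other than the tested one. Leaving out 1 array at a time gave 0 to 7 members in control morphants, 0 to 1 in double morphants, 0 to 1 between injected and 0 to 9 between uninjected sides, and 0 for the difference between the effects. The median log2 difference of the members in double morphants was 0.0032 without the filter, 0.0803 with the brightest probe sets, 0.1149 after renewed quantile normalization and 0.0578 to 0.187 with 1 array left out. In control morphants it ranged from -0.0562 to 0.1486 with 1 array left out, so its direction is not settled. Between uninjected sides it was -0.031 without the filter and -0.1908 to -0.0516 with 1 array left out. Some directions turned: dkk1.S in double morphants had -0.034 with the brightest probe set and -0.3057 to 0.4079 with 1 array left out, fzd7.L between injected sides had -0.0047 and fzd8.S in control morphants 0.1364 with the brightest probe set. The cause of these changes was not tested, except that other probe sets enter by construction. Of the other values for single genes, 553 kept direction and side of the threshold, 127 lost the call and 51 gained one. The 553 include values from settings under which a direction could not turn. A call could be lost only where the main fit had made one, and the 553 also hold genes that were not called and stayed so. These counts therefore do not give the share of calls that were kept.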
